A study of Rattus norvegicus with 18 samples.

Results

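Serpine2, the gene of protease nexin-1, rose in rat hepatocytes treated with EMD by 25.5- to 58.7-fold. Its DMSO level lay in the low range of the array, where no detection call shows whether it lies above background. At 72 h the genes of 5 liver-made plasma serpins fell with 100 µM EMD, where 9.68% of all probe sets fell. With 30 µM 4 of them fell, where 9.22% of all probe sets fell. Serpina6, the gene of another plasma serpin, rose with 100 µM at 72 h, a call that was lost in 3 of 6 fits that left out an array. The serpins described here are 9 genes, Serpine2, Serpina1, Serpina3c, Serpina3n, Serpina6, Serpina10, Serpinf1, Serpinf2 and Serping1. They were chosen with earlier results of these data known, so their counts of calls do not test the family. Each probe set whose annotation gave exactly 1 of these symbols was used. This gave 9 probe sets, 1 for each gene, of 31042 probe sets tested and of 14217 genes with a probe set of their own symbol. All 9 encode proteins that leave the cell, so none of them is an intracellular serpin. The intracellular serpins of clade B stand among 25 other measured serpins.

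The cultures were primary hepatocytes of Wistar rats, measured on 18 Affymetrix arrays in 6 groups of 3. Cells were left to attach for 24 h and then received 0.1% DMSO as vehicle, 30 µM EMD or 100 µM EMD, each for 24 h or 72 h. EMD is described by the study as a compound that activates both PPARα and PPARγ, nuclear receptors that regulate the use and storage of fat. All cultures, the vehicle ones included, were kept in Dulbecco's modified Eagle's medium with 4 mg/l insulin, 50 mg/l gentamicin and 1e-05 M hydrocortisone, a glucocorticoid. Per the study's methods each animal's cells received every dose, but the labels tie no array to an animal.

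Serpins share a fold with an exposed loop that a target protease cuts. The cut loop inserts into the serpin and traps the protease, so that an inhibitory serpin is used up with its target. Hepatocytes make most of the serpins of plasma, which restrain clotting, fibrinolysis, complement and the enzymes of neutrophils, and a few family members inhibit nothing and carry hormones or act as signals instead.

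Levels are log2 values from the RMA algorithm, so a difference of 1 is a doubling of the array signal, and levels of different probe sets cannot be set against each other. A gene rose or fell where the adjusted p of limma's test over all probe sets was under 0.05, and changes are differences of group means ± the standard error (SE) of the fit. Array medians lay between 5.04 and 5.11, and the change of a probe set between 2 groups had a median SE of 0.116. This precision depends on the number of arrays and on the spread of each probe set. Among the 9 serpins the SE ran from 0.11 for Serpinf1 to 0.40 for Serpina6. Of 11 hepatocyte markers 0 lay under the array median on all 18 arrays, while 10 of 14 markers of stellate cells and fibroblasts, 8 of 9 endothelial, 4 of 7 cholangiocyte and 6 of 12 macrophage markers did. In RNA from whole cultures, fewer cells of a type and less RNA per cell cannot be told apart.

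Against DMSO at 24 h, 1 of the 9 serpins rose and 1 fell with 30 µM EMD, where 5.36% of all probe sets were called, 3.35% higher and 2.01% lower. At 100 µM for 24 h, 1 rose and 2 fell, against 6.01% of all probe sets, 3.06% higher and 2.95% lower. At 72 h, 1 rose and 4 fell with 30 µM, and 2 rose and 5 fell with 100 µM, against 17.1% of all probe sets at either dose (7.88% higher and 9.22% lower at 30 µM, 7.42% higher and 9.68% lower at 100 µM). The median change of the 9 genes for 30 and 100 µM was -0.40 and -0.34 at 24 h, then -0.60 and -0.85 at 72 h, where the medians over all probe sets were between -0.03 and 0.02. These shares include dim probe sets. A filter on dim probe sets kept all 9 serpins and 16683 probe sets. Of those 16683, 1148 rose and 683 fell with 30 µM at 24 h, and 1016 rose and 1016 fell with 100 µM. At 72 h 2246 of them rose and 2834 fell with 30 µM, and 2152 rose and 2957 fell with 100 µM. Both doses were compared with the same 3 DMSO arrays of their time, so the comparisons at a time share those arrays. Levels of EMD and DMSO did not overlap for 4, 4, 5 and 7 of the 9 genes in these comparisons, against 21.4%, 20.8%, 31.9% and 29.2% of all probe sets. Because the 9 genes were chosen with earlier results of these data known, the shares only describe and do not test the serpins as a group.

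**Figure D1:**
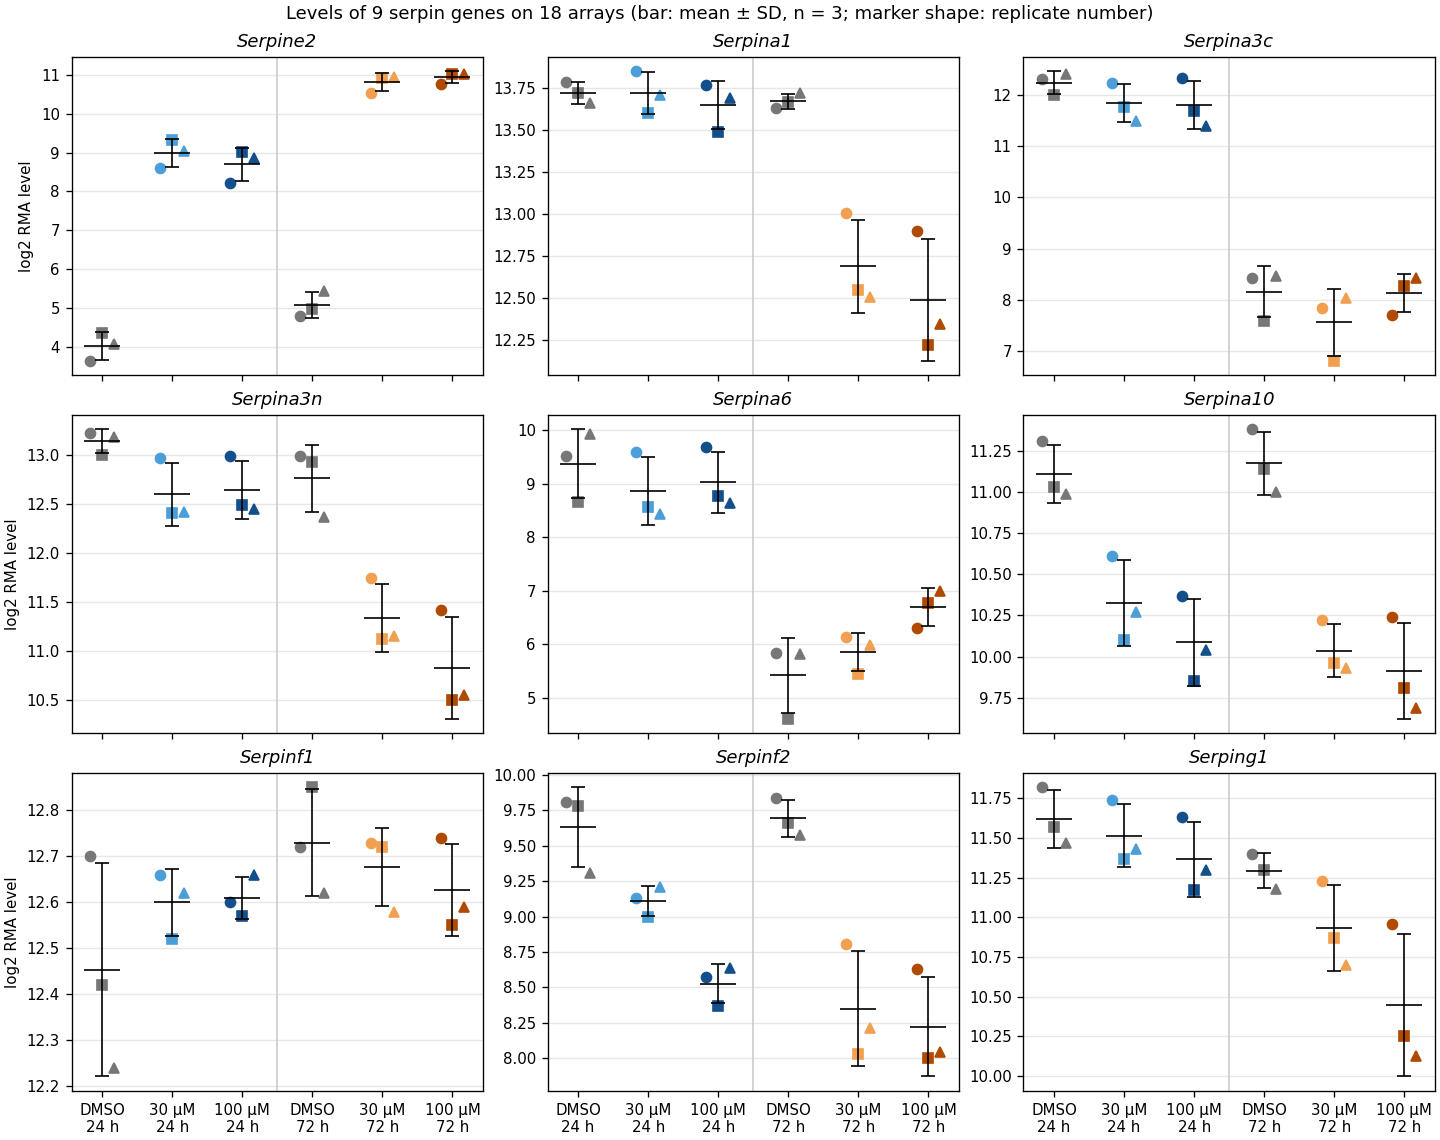
Log2 RMA level (vertical axis, a scale of its own in each panel) of the 9 serpin genes on each of the 18 arrays, in 6 groups of dose and time; black bars give the mean ± SD of 3 arrays and the marker shape the replicate number. Serpine2 is higher in every EMD culture than in any DMSO culture, and Serpina3c and Serpina6 are lower at 72 h than at 24 h in all groups.

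Serpine2 encodes protease nexin-1, a secreted inhibitor of thrombin, urokinase and tissue plasminogen activator. Its log2 level in DMSO was 3.64, 4.36 and 4.07 at 24 h and, at 72 h, 4.79, 4.98 and 5.44. With 30 µM EMD it was 8.61, 9.32 and 9.05 at 24 h and, at 72 h, 10.55, 10.93 and 10.96. The 100 µM cultures had 8.21, 9.02 and 8.86 at 24 h and, at 72 h, 10.77, 11.03 and 11.03. The DMSO and EMD levels lay far apart at both times, and in DMSO all 3 arrays at 24 h and 2 of 3 at 72 h were under the median of their array, so the folds start from the low range, where RMA compresses values. Serpine2 rose by 4.97 ± 0.23 (31.3-fold, adjusted p = 2e-10) and 4.67 ± 0.23 (25.5-fold, adjusted p = 4.8e-10) at 24 h with 30 and 100 µM, and by 5.75 ± 0.23 (53.7-fold, adjusted p = 5e-11) and 5.87 ± 0.23 (58.7-fold, adjusted p = 3.8e-11) at 72 h. These changes ranked 11 and 10 from the top at 24 h and 7 and 3 at 72 h among the 31042 probe sets.

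The order of the group means of Serpine2 was DMSO at 24 h, DMSO at 72 h, 100 µM at 24 h, 30 µM at 24 h, 30 µM at 72 h and 100 µM at 72 h. The doses did not differ beyond their spread, by -0.29 (95% interval -0.79 to 0.20) at 24 h and by 0.13 (-0.36 to 0.62) at 72 h. In DMSO alone Serpine2 rose from 24 h to 72 h by 1.04 ± 0.23 (adjusted p = 0.0047). The response to EMD was larger at 72 h than at 24 h by 0.78 (0.08 to 1.47, adjusted p = 0.33) for 30 µM and 1.20 (0.50 to 1.90, adjusted p = 0.12) for 100 µM, neither of which passed the test in the fit without a replicate block. Over the 18 arrays the genes most like Serpine2 were Fbxo21 (r = 0.991), Slc25a20 (0.989), the mitochondrial carrier of acylcarnitines, and Nudt7 (0.988), a peroxisomal hydrolase, and arrays of a group share their treatment, so these r only describe. Slc25a20 also stands in a list of 21 known PPARα target genes, of which all 19 that were measured rose in each of the 4 comparisons, with median changes of 3.17, 3.23, 3.09 and 2.71. Serpine2 is also made by mesenchymal cells. Of the 14 markers of stellate cells and fibroblasts 0 rose in any of the 4 comparisons, where 3.06% to 7.88% of all probe sets rose. Their summed level on the log2 scale ran from 8.80 to 12.07 in DMSO and from 8.90 to 11.32 with EMD. Tagln, a gene of contractile cells whose group means varied most, had its lowest mean in DMSO at 24 h (8.18) and its highest in DMSO at 72 h (10.57). The part of these cells in the Serpine2 level was not tested.

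The promoters of Serpine2 and of the serpins that fell or stayed level are printed to show what letters stand before genes that moved in opposite directions. Promoters were taken from RefSeq on GRCr8 for the 5 serpins that the table held, Serpine2, Serpina1, Serpina3n, Serpinf1 and Serpinf2, and the 250 bases before the start were searched on both strands. The motifs were AGGTCANAGGTCA, the direct repeat bound by PPARα with its partner RXR, its AGGTCA half-site, which lies within it, the STAT site TTCNNNGAA and the C/EBP site TTNCNNAA. Serpine2 (chr9:88637203-88637452, minus strand) held 0 matches to any of them, and 76.8% of its bases were G or C. Sequences run in the direction of transcription, up to the base before the start, and Serpina1, not printed, held 1 C/EBP site and none of the others.

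Serpine2: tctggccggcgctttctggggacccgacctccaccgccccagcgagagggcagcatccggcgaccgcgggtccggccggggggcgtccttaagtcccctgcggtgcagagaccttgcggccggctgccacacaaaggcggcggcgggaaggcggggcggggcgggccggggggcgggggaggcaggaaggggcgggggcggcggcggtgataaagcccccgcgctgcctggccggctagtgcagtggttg

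The direct repeat was in none of the 5 promoters, and in 0.0508% of the 33469 rat promoters of the table. A match only describes letters, and a missing match says that they are not in this window.

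**Figure D2:**
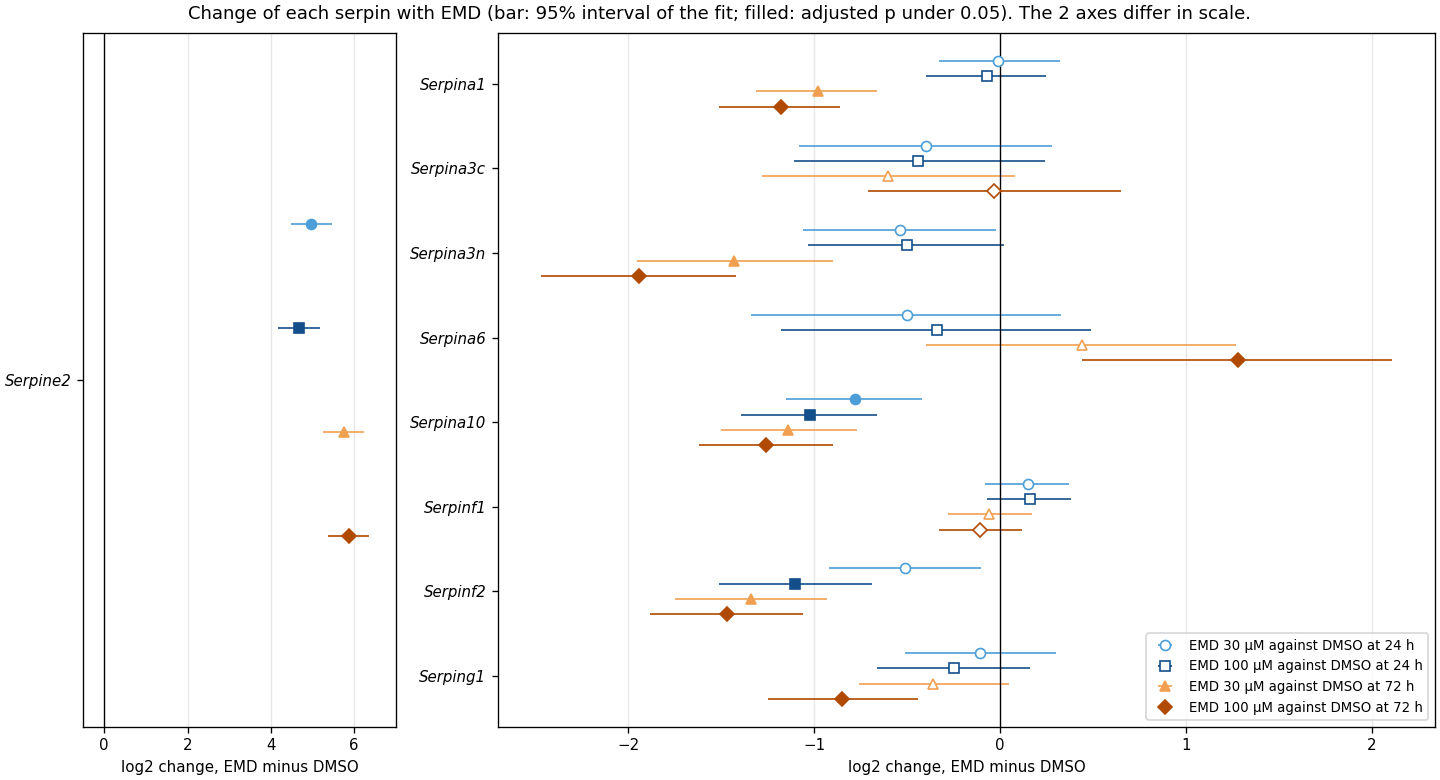
Log2 change of each serpin, EMD minus DMSO, at 30 and 100 µM and at 24 and 72 h, with Serpine2 on an axis of its own at the left; points give the change, bars its 95% interval, and filled points passed an adjusted p of 0.05. Serpine2 lies between 4.67 and 5.87, and Serpina10 has filled points below 0 in all 4 comparisons.

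Serpina1 encodes α1-antitrypsin, the main inhibitor of neutrophil elastase in plasma. Its level with DMSO was 13.79, 13.72 and 13.66 at 24 h and, at 72 h, 13.63, 13.67 and 13.72. Under 30 µM EMD the values were 13.85, 13.60 and 13.71 at 24 h and, at 72 h, 13.01, 12.55 and 12.51. The 100 µM levels were 13.77, 13.49 and 13.69 at 24 h and, at 72 h, 12.90, 12.22 and 12.35. The groups overlapped at 24 h and lay apart at 72 h. At 24 h the changes were -0.01 ± 0.15 and -0.07 ± 0.15, with intervals from -0.40 to 0.32 over both doses. At 72 h Serpina1 fell by 0.98 ± 0.15 (1.98-fold, adjusted p = 0.00023) with 30 µM and by 1.18 ± 0.15 (2.27-fold, adjusted p = 4.2e-05) with 100 µM.

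The response of Serpina1 differed between the times, by -0.98 ± 0.22 (adjusted p = 0.042) for 30 µM and by -1.11 ± 0.22 (adjusted p = 0.027) for 100 µM. In the fit without a replicate block it was the only one of the 9 genes called in either test. Of all probe sets 0.941% were called for 30 µM (0.412% higher, 0.528% lower) and 0.693% for 100 µM (0.245% higher, 0.448% lower). With the block Serpine2 and Serpina3n were also called at both doses, and Serpinf2 at 30 µM. The Serpina1 call at 30 µM held in 1 of the 12 fits that left out an array, the one without EMD 30 µM 72 h replicate 1 (-1.14, adjusted p = 0.016). Its call at 100 µM held in 5 of 12, with changes between -1.32 and -0.98 over all 12. The genes most like Serpina1 over the 18 arrays were Vtn (r = 0.983), which encodes the plasma protein vitronectin, Serpina3n (0.961) and Fetub (0.960), which encodes fetuin-B.

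Serpina3n encodes a secreted inhibitor of the antichymotrypsin group, known as an acute phase gene. Its level with DMSO was 13.23, 13.00 and 13.19 at 24 h and, at 72 h, 12.99, 12.93 and 12.37. Cultures with 30 µM EMD read 12.97, 12.41 and 12.42 at 24 h and, at 72 h, 11.74, 11.12 and 11.15. With the higher dose it stood at 12.99, 12.49 and 12.45 at 24 h and, at 72 h, 11.42, 10.50 and 10.55. EMD cultures lay below the DMSO cultures of their time in all 4 comparisons. At 24 h the changes, -0.54 ± 0.25 (adjusted p = 0.29) and -0.50 ± 0.25 (adjusted p = 0.32), did not pass the test. In the fit with a replicate block both passed it (adjusted p = 0.028 and 0.037). At 72 h Serpina3n fell by 1.43 ± 0.25 (2.69-fold, adjusted p = 0.00056) with 30 µM and fell by 1.94 ± 0.25 (3.84-fold, adjusted p = 3.2e-05) with 100 µM. Its most alike genes were Vtn (r = 0.968), C1r (0.965), a protease of complement, and Pla1a (0.964), a phospholipase. Its promoter (chr6:129088142-129088391, plus strand) held the STAT site, in capitals, which 7.67% of all promoters hold, with its first base 123 bases before the start, and 2 C/EBP sites, a motif found in 37.2%.

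Serpina3n: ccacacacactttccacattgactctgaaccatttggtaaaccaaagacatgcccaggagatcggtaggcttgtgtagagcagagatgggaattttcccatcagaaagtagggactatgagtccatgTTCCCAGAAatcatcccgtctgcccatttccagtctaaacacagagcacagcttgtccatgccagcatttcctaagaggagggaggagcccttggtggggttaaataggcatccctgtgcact

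Serpina3c encodes a related inhibitor, and its changes with EMD, between -0.60 ± 0.32 at 30 µM and -0.03 ± 0.32 at 100 µM for 72 h, did not pass the test in any of the 4 comparisons. Its level differed between the times in culture. With DMSO it was 12.31, 11.99 and 12.41 at 24 h and, at 72 h, 8.44, 7.60 and 8.46, a fall of 4.07 ± 0.32 (16.8-fold, adjusted p = 3.9e-07). With EMD it ran from 11.39 to 12.32 at 24 h and from 6.82 to 8.43 at 72 h, so the times lay apart in every group. Serpina3c and Serpina3n have related genes nearby, and whether their probe sets share signal was not tested.

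Serpina6 encodes corticosteroid-binding globulin, which inhibits no protease and carries glucocorticoids in plasma. Its level with DMSO was 9.53, 8.67 and 9.93 at 24 h and, at 72 h, 5.84, 4.61 and 5.81, a fall of 3.95 ± 0.40 (15.5-fold, adjusted p = 4.8e-06). At 30 µM EMD it read 9.60, 8.57 and 8.44 at 24 h and, at 72 h, 6.14, 5.45 and 5.98. At 100 µM the arrays read 9.69, 8.77 and 8.64 at 24 h and, at 72 h, 6.31, 6.78 and 7.0. In DMSO at 72 h the mean was 5.42 and 1 of 3 arrays lay under the median of its array. Changes to or from this group reach the low range, where RMA compresses values. Serpina6 was low at 72 h in every group, and least so with 100 µM, where all 3 arrays lay above all of DMSO. There it rose by 1.28 ± 0.40 (2.43-fold, adjusted p = 0.034), the only one of the 9 besides Serpine2 that rose with EMD. The call rested on few arrays. Without DMSO 72 h replicate 2, the lowest array, the change was 0.88 (adjusted p = 0.18), without EMD 100 µM 72 h replicate 2 it was 1.24 (0.092) and without EMD 100 µM 72 h replicate 3 it was 1.13 (0.13). Changes at 30 µM for 72 h (0.44 ± 0.40) and at 24 h (-0.50 and -0.34, each ± 0.40) did not pass the test. The genes most like Serpina6 were Serpina3l (r = 0.972), Serpina3c (0.961) and Mtdh (0.960), over arrays of both times.

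Serpina10 encodes the protein Z-dependent inhibitor of clotting factor Xa. In the fit without a replicate block it was the only one of the 9 that fell in all 4 comparisons. With the block Serpina3n and Serpinf2 fell in all 4 as well. The level of Serpina10 with DMSO was 11.31, 11.03 and 10.99 at 24 h and, at 72 h, 11.38, 11.14 and 11. In 30 µM EMD the level was 10.61, 10.10 and 10.27 at 24 h and, at 72 h, 10.22, 9.96 and 9.93. For 100 µM the values were 10.37, 9.85 and 10.04 at 24 h and, at 72 h, 10.24, 9.81 and 9.69. No EMD culture reached a DMSO culture. Serpina10 fell at 24 h by 0.78 ± 0.17 (1.72-fold, adjusted p = 0.0095) with 30 µM and fell by 1.02 ± 0.17 (2.03-fold, adjusted p = 0.001) with 100 µM, and at 72 h, in the same order, fell by 1.14 ± 0.17 (2.20-fold, adjusted p = 0.00015) and fell by 1.26 ± 0.17 (2.39-fold, adjusted p = 6.2e-05). At 30 µM for 24 h the call was lost without DMSO 24 h replicate 1 (-0.68, adjusted p = 0.051) or EMD 30 µM 24 h replicate 2 (-0.67, 0.067). Its most alike genes were Gas6 (r = 0.974), Cdr2 (0.965) and Tjp1 (0.965), of which Gas6 encodes a vitamin K-dependent ligand and Tjp1 a tight junction protein.

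Serpinf2 encodes α2-antiplasmin, the main inhibitor of plasmin. Its level with DMSO was 9.81, 9.78 and 9.31 at 24 h and, at 72 h, 9.84, 9.66 and 9.58. Values under 30 µM EMD were 9.13, 9.0 and 9.21 at 24 h and, at 72 h, 8.81, 8.03 and 8.21. Under 100 µM it measured 8.57, 8.37 and 8.64 at 24 h and, at 72 h, 8.63, 8.0 and 8.04. The DMSO levels lay above all EMD levels of their time. At 24 h Serpinf2 fell by 1.10 ± 0.19 (2.15-fold, adjusted p = 0.0016) with 100 µM, while the change with 30 µM was -0.51 ± 0.19 (adjusted p = 0.17). In the fit with a replicate block the change with 30 µM passed the test too (adjusted p = 0.05, under the threshold before rounding). At 72 h it fell by 1.34 ± 0.19 (2.54-fold, adjusted p = 0.0001) with 30 µM and fell by 1.47 ± 0.19 (2.78-fold, adjusted p = 4.6e-05) with 100 µM. The 2 doses at 24 h did not overlap, with a difference of -0.59 (-1.0 to -0.18, adjusted p = 0.94). Its most alike genes were Ikbkb (r = 0.971), Cav2 (0.965) and Myl12b (0.962).

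Serpinf1, the gene next to Serpinf2 on chromosome 10 with 0 genes between them, encodes pigment epithelium-derived factor, which inhibits no protease and restrains the growth of vessels. Its levels over all 18 arrays ran from 12.24 to 12.85, and EMD and DMSO overlapped at both times. The changes were 0.15 and 0.16 at 24 h and -0.06 and -0.11 at 72 h, each ± 0.11. The intervals of the 4 changes ran from -0.33 to 0.38, so a change of the size seen for Serpinf2 at 72 h lay outside them. In DMSO it was higher at 72 h than at 24 h by 0.28 ± 0.11 (adjusted p = 0.071), which did not pass the test. In the fit with a replicate block this difference passed it (adjusted p = 0.048). The neighbours are printed together because Serpinf2 passed the test of EMD against DMSO and Serpinf1 did not. Both hold the half-site AGGTCA, in capitals, as do 14.1% of all promoters. The first base of the half-site lies 92 bases before the start of Serpinf1 (chr10:60760899-60761148, minus strand) and 127 before that of Serpinf2 (chr10:60778783-60779032, minus strand). Serpinf1 also held 1 C/EBP site, on the opposite strand with its first base 84 bases before the start, and Serpinf2 held none.

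Serpinf1: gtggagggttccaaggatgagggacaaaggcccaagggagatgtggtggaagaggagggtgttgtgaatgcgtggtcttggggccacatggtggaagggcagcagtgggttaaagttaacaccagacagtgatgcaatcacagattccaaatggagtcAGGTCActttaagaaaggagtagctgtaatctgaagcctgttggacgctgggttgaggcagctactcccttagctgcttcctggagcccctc
Serpinf2: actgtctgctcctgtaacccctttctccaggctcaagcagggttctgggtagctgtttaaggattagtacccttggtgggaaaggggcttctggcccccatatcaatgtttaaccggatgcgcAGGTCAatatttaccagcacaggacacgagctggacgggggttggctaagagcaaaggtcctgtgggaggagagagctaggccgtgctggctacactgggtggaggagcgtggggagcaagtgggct

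Serping1 encodes C1 inhibitor, which blocks the complement proteases C1r and C1s and plasma kallikrein. Its level with DMSO was 11.82, 11.57 and 11.47 at 24 h and, at 72 h, 11.40, 11.30 and 11.18. The 30 µM cultures read 11.74, 11.37 and 11.43 at 24 h and, at 72 h, 11.23, 10.87 and 10.70. The higher dose gave 11.63, 11.17 and 11.30 at 24 h and, at 72 h, 10.96, 10.25 and 10.13. Only the cultures with 100 µM for 72 h lay below all DMSO cultures of their time. There Serping1 fell by 0.85 ± 0.19 (1.80-fold, adjusted p = 0.005), and the other changes were -0.11 and -0.25 at 24 h and -0.36 at 30 µM for 72 h (each ± 0.19, lowest adjusted p = 0.25). In the fit with a replicate block the change at 30 µM for 72 h passed the test too (adjusted p = 0.025). Its most alike genes were Hpx (r = 0.971), which encodes the heme carrier hemopexin, Dpt (0.970) and Icoslg (0.965).

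Between the doses, 0 of the 9 serpins differed by limma's test at 24 h, as did 0 of all probe sets (0%), with 1 of the 9 and 1421 of the 31042 at an unadjusted p under 0.05. At 72 h, 0 of the 9 differed, against 3.1% of all probe sets, 1.25% higher and 1.85% lower, with 2 of the 9 at an unadjusted p under 0.05, Serpina6 and Serping1. In the fit with a replicate block Serpina3n and Serping1 were lower with 100 µM (adjusted p = 0.047 and 0.016), as were 967 of the 31042 probe sets, while 658 were higher. Groups did not overlap for 1 gene at 24 h (Serpinf2, against 12.5% of all probe sets) and 1 at 72 h (Serpina6, against 18.2%). The difference for Serpina6 at 72 h was 0.84 (0.01 to 1.68), that for Serping1 -0.49 (-0.90 to -0.08) and that for Serpina3n -0.52 (-1.04 to 0.01).

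From 24 h to 72 h in DMSO, 1 of the 9 serpins rose and 2 fell, against 21.7% of all probe sets (11% higher and 10.7% lower), and 5 of 9 did not overlap, against 35.6%. In the EMD cultures, where time was not tested, Serpina3c and Serpina6 were also lower on every array at 72 h than on any at 24 h. In DMSO Serpina1, Serpina10 and Serpinf2 changed by -0.05 ± 0.15, 0.06 ± 0.17 and 0.06 ± 0.19. Of 3 control transcripts with probe sets at both ends, beta-actin had a 3' minus 5' signal difference on the log2 scale of 1.22 to 1.39 at 24 h, of 0.637 to 0.733 in DMSO at 72 h and of 0.819 to 0.894 with EMD at 72 h. The beta-actin difference moved with time and, at 72 h, with EMD. The other two did not follow it in all groups. The Gapdh difference had a mean of 0.289 in DMSO at 24 h and 0.168 at 72 h, and at 72 h of 0.171 with 30 µM and 0.141 with 100 µM. The hexokinase difference had a mean of 1.40 in DMSO at 24 h and 1.57 at 72 h, and at 72 h of 1.50 with 30 µM and 1.67 with 100 µM. The part of RNA quality in the serpin results was not tested.

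Serpina3c, Serpina3n, Serpina1, Serpina6 and Serpina10 lie in 1 run of genes on chromosome 6. From Serpina10 to Serpina3n the RefSeq table lists 23 genes, of which 19 have a Serpina symbol and 0 of 18 protein-coding genes lack one. Serpina10 and Serpina6 are next to each other, and the difference between them was not tested. Serpina6 fell with time in DMSO and rose with 100 µM EMD at 72 h, whereas Serpina10 changed by 0.06 ± 0.17 with time and fell with EMD. Serpina3c and Serpina3n are separated by 1 gene, Serpina3l, which fell with time in DMSO by 3.31 ± 0.24 (adjusted p = 1.8e-07). Of the 11 measured genes of the run, 4 fell and 0 rose with time in DMSO, and 6 fell and 1 rose with 100 µM at 72 h. Of all probe sets, 10.7% fell and 11% rose with time in DMSO, and 9.68% fell and 7.42% rose with 100 µM at 72 h. Serpine2 lies on chromosome 9 and Serping1 on chromosome 3.

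**Figure D3:**
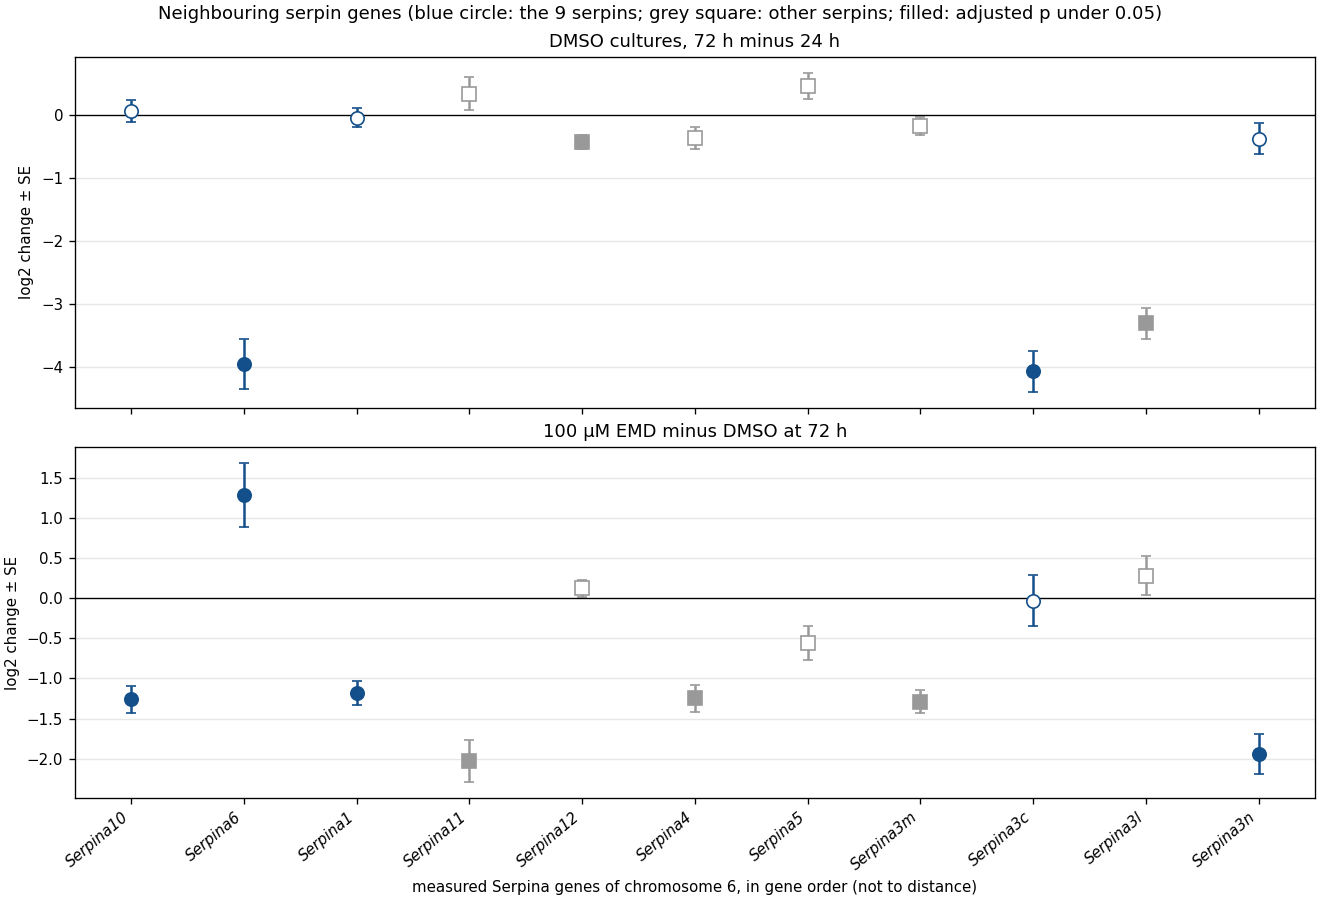
Log2 change ± SE of the 11 measured Serpina genes of chromosome 6, placed in gene order and not by distance, for DMSO at 72 h minus 24 h (top) and for 100 µM EMD minus DMSO at 72 h (bottom, another scale); circles are serpins described here, squares other serpins, and filled symbols passed an adjusted p of 0.05. The large falls with time are those of Serpina6, Serpina3c and Serpina3l, and Serpina6 is the only gene that rose with EMD.

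Among the 25 other serpins, 0 rose and 1 fell with 30 µM at 24 h, 0 and 2 with 100 µM, 3 and 5 with 30 µM at 72 h and 1 and 6 with 100 µM, with median changes between -0.12 and -0.06. Against these stand 5.36% and 6.01% of all probe sets called at 24 h and 17.1% at either dose at 72 h. Serpind1, which encodes the thrombin inhibitor heparin cofactor II, fell in all 4 comparisons, with changes of -1.44, -1.80, -2.22 and -3.39 (each ± 0.26, highest adjusted p = 0.0025). Serpina11 fell at 72 h, with changes of -1.42 and -2.03 (each ± 0.26). Serpina7, the gene of thyroxine-binding globulin, rose with 30 µM at 72 h by 1.84 ± 0.20 (adjusted p = 4.5e-06), and its change with 100 µM was 0.45 ± 0.20 (adjusted p = 0.14). Of the 11 clade B serpins, which act inside cells and of which 7 lay under the array median throughout, 1 rose and 1 fell with 100 µM at 72 h. The one that rose was Serpinb9b, by 1.95 ± 0.33, with 2.28 ± 0.33 for 30 µM at 72 h. The one that fell was Serpinb1a, with changes on its main probe set of -1.53 ± 0.25 and, for 30 µM at 72 h, -1.81 ± 0.25. Serpinb6a fell with 30 µM at 72 h too, with a change of -0.58 ± 0.11. In DMSO at 72 h the means were 3.56 for Serpina7 and 3.95 for Serpinb9b, in the low range where RMA compresses values. No other measured serpin changed by as much as Serpine2 in any of the 4 comparisons.

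**Figure D4:**
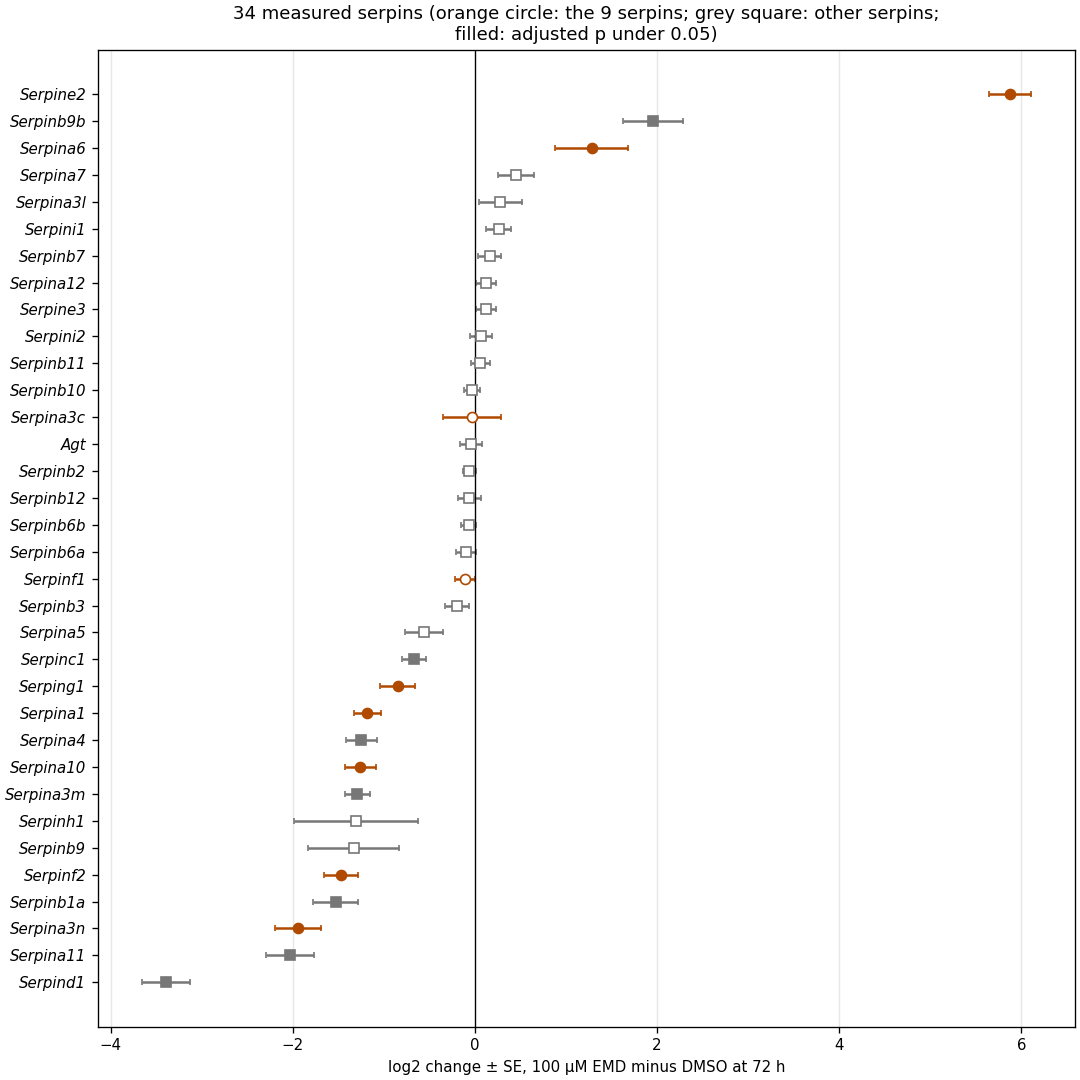
Log2 change ± SE of the 34 measured serpins with 100 µM EMD at 72 h, EMD minus DMSO, in order of size; orange circles are serpins described here, grey squares other serpins, and filled symbols passed an adjusted p of 0.05. Serpine2 stands apart at 5.87, and Serpind1 has the lowest value at -3.39.

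Proteases that serpins inhibit were measured for 18 of 25 named genes. With 100 µM at 72 h, 11 fell and 0 rose, and with 30 µM at 72 h, 5 fell and 3 rose. At 24 h 3 rose and 1 fell with 30 µM, and 0 and 1 with 100 µM. Over all probe sets 5.36% and 6.01% were called at 30 and 100 µM for 24 h, and 17.1% at either dose for 72 h. For falls with 100 µM at 72 h the share was 9.68%. Klkb1, plasma prekallikrein and a target of C1 inhibitor, fell in all 4 comparisons, with changes of -1.62, -1.58, -2.29 and -2.15 (each ± 0.33). C1r and C1s, its targets in complement, fell at 72 h, with changes of -1.53 and -1.66 (± 0.35) for C1r and of -1.72 and -2.36 (± 0.46) for C1s. For C1s the call at 30 µM was lost in 4 of the 6 fits without an array, those without DMSO 72 h replicate 1 (-1.53, adjusted p = 0.068) or 2 (-1.61, 0.06) or EMD 30 µM 72 h replicate 2 (-1.66, 0.056) or 3 (-1.49, 0.078). Proc, the anticoagulant protein C, fell with 100 µM at 72 h by 1.49 ± 0.20. Serping1, Klkb1, C1r and C1s were all lower with 100 µM at 72 h.

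Receptors and clearance factors of serpins were measured for 15 of 16 genes. At 24 h 3 rose and 0 fell at each dose. At 72 h 4 rose and 2 fell with 30 µM, and 4 rose and 3 fell with 100 µM. The shares called over all probe sets were 5.36% and 6.01% at 24 h and 17.1% at either dose at 72 h. Pnpla2, a triglyceride lipase that also binds the product of Serpinf1, rose by 2.33, 2.43, 2.46 and 2.15 (each ± 0.19). Lrp1, an endocytic receptor that takes up protease nexin-1 with its trapped protease, rose by 1.62, 1.57, 1.76 and 1.26 (each ± 0.21) on its main probe set, while the other probe set changed by only 0.03 to 0.20. Vldlr, a related receptor, rose at 72 h by 1.45 and 1.54 (± 0.16), with 1.37 to 1.85 on its other probe sets. Asgr2, a subunit of the asialoglycoprotein receptor, fell with 100 µM at 72 h by 1.27 ± 0.17.

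Factors that fold and carry secreted proteins in the endoplasmic reticulum were measured for 18 of 20 genes. Of these 1 rose and 0 fell at each dose at 24 h, 1 rose and 2 fell with 30 µM at 72 h and 4 rose and 1 fell with 100 µM. Calls over all probe sets made up 5.36% and 6.01% at 24 h and 17.1% at either dose at 72 h. The counts at 24 h and with 30 µM at 72 h lay near these shares. Ero1a, an oxidase for disulfide bonds, rose by 0.78, 0.66, 1.0 and 0.86 (each ± 0.14). Sel1l, part of the disposal of misfolded proteins, rose with 100 µM at 72 h by 0.96 ± 0.23, and Hsp90b1, a chaperone, and Edem2 fell with 30 µM at 72 h, with changes of -0.92 ± 0.26 and -0.48 ± 0.15. The Hsp90b1 and Edem2 calls were each lost in at least 4 of 6 fits without an array, with adjusted p up to 0.073 and 0.16.

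Acute phase and glucocorticoid-responsive genes were measured for 22 of 24, and 1 rose in each comparison while 6 and 5 fell at 24 h and 8 and 9 at 72 h. Falls over all probe sets were 2.01% and 2.95% at 24 h and 9.22% and 9.68% at 72 h. Cebpd, a transcription factor of the acute phase, fell, with changes of -0.99, -0.93, -1.86 and -1.77 (each ± 0.21), and its other probe sets changed by -1.93 to 0.21. Its 24 h calls were lost without replicate 2 of EMD 30 µM (-0.87, adjusted p = 0.056) and of EMD 100 µM (-0.81, 0.073). Itih4 fell at 72 h, with changes of -1.95 and -1.71 (± 0.20), as did A2m, the gene of the broad protease inhibitor α2-macroglobulin, with -1.81 and -1.41 (± 0.18). Fga, a fibrinogen chain, fell at 72 h, with changes of -1.53 with 30 µM and -0.65 with 100 µM (± 0.19), and the latter call was lost in 4 of 6 fits without an array, with adjusted p up to 0.096. The counts of these lists were set beside the shares over all probe sets only, and no test of a list as a whole was made.

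Some hepatocyte markers fell with the serpins at 72 h. The mean level of 11 hepatocyte markers lay between 12.06 and 12.39 in DMSO at both times and at 11.74 to 11.91 with 30 µM and 11.43 to 11.65 with 100 µM at 72 h, and 5 and 6 of the 11 fell there while 1 rose. Cyp2c11, a male-specific cytochrome P450 of rat liver, changed most among them, by -3.56 and -3.48 (each ± 0.35). Without it the mean level of the other 10 was 12.11 to 12.40 in DMSO at 72 h, 12.10 to 12.17 with 30 µM and 11.75 to 11.99 with 100 µM, so that 30 µM overlapped DMSO and 100 µM did not. Apoa1 fell at 72 h, with changes of -0.75 and -0.95 (each ± 0.10), as did Ambp, with -0.46 and -1.20 (each ± 0.13). Alb, the albumin gene, changed by 0.01 ± 0.06 at both doses and Hnf4a, a transcription factor of hepatocytes, by 0.02 ± 0.12, while Asgr1, the other subunit of the asialoglycoprotein receptor, rose by 1.26 and 0.64 (each ± 0.14). Alb had means of 14.75 in DMSO and 14.76 with either dose at 72 h, where the highest value on any array was 14.77. So close to the top of the scale, a change of Alb may not show. The summed level of the hepatocyte markers on the log2 scale was 16.49 to 16.65 in DMSO, 16.23 to 16.30 with 30 µM and 16.03 to 16.19 with 100 µM at 72 h. Macrophage markers, 12 in number, had a mean level of 5.24 to 5.46 in DMSO and 4.95 to 5.16 with EMD at 72 h, and 1 and 2 fell at 30 and 100 µM. Cholangiocyte markers, 7 in number, had a mean level of 5.22 to 5.31 in DMSO and of 4.87 to 5.10 with EMD at 72 h, and the mean level of the 9 endothelial markers lay between 3.72 and 4.00 on all arrays. Of these Eng, the gene of endoglin, rose with 30 µM at 24 h by 0.50 ± 0.14 (adjusted p = 0.046) and at 72 h by 1.31 and 0.79 (each ± 0.14), and it was the one marker not under the array median throughout. At 72 h 9.22% of all probe sets fell with 30 µM and 9.68% with 100 µM. Of the 14 stellate cell and fibroblast markers 3 fell with 30 µM and 1 with 100 µM at 72 h. The part of these shifts in the falls of Serpina1, Serpina3n, Serpina10, Serpinf2 and Serping1 was not tested. Serpinf1 passed the test in none of the 4 comparisons.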

How the data were processed

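Total RNA of 18 cultures was hybridised to Affymetrix rat arrays, 1 array per culture. The deposited values are log2 expression estimates, which the authors made with RMA in Expression Console with the standard rat library (version not given in the sources used here). Because RMA equalises the arrays' distributions after a background correction, any shift that most genes share is lost, and low values are compressed. Scanner files were not used here, and RMA gives no detection call.

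Groups and replicate numbers came from the sample titles. Of 31099 probe sets, 57 controls were left out. Platform annotation gave 20826 of the rest 1 symbol, 436 several and 9780 none. With R 4.3.3 and limma 3.58.1, lmFit and eBayes were run on all 18 arrays in 6 groups, with Benjamini-Hochberg adjustment over 31042 probe sets, two-sided, and a threshold of 0.05. There were 9 comparisons: each dose with DMSO at each time, dose with dose, DMSO between the times, and the responses between the times. The study's methods give no test for these. The labels call the EMD replicates biological and number the DMSO ones, and the study's methods give 3 biological replicates a group, but no array is tied to an animal, so p-values measure how these cultures vary. On simulated data for 100 µM against DMSO at 72 h over 31042 probe sets, 34% of changes of 0.5, 84% of 1, 94% of 1.5 and 98% of 2 were recovered, with 2 false calls.

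The serpins and gene lists were chosen with earlier results of these data known. Each gene was read through its probe set with the highest mean; each list names up to 4 called genes with the largest change, and likeness means the 3 genes with the highest Pearson correlation over 18 arrays. Promoters and gene order came from RefSeq tables (GRCr8). Alternatives were cyclic loess, equal array medians, a fit of only the arrays compared, an intensity trend with robust moderation, array weights, a filter on dim probe sets, a replicate block, the mean of a gene's probe sets and leaving out each array. Figures were drawn with matplotlib 3.10.9.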

Additional observations from a re-analysis of the deposited data

Results flagged for a closer look

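The response of Serpina1, the α1-antitrypsin gene, differed between 24 h and 72 h at both doses, which is why it is listed here. In the fit with a replicate block, Serpine2 and Serpina3n were called at both doses too, and Serpinf2 at 30 µM. For Serpina1 without the block, the difference of the responses, 72 h minus 24 h, was -0.98 ± 0.22 on the log2 scale for 30 µM EMD (adjusted p = 0.042). It was -1.11 ± 0.22 for 100 µM (adjusted p = 0.027), by an interaction term in limma. With 3 arrays in each group, all 3 EMD arrays at 72 h lay below all 3 DMSO arrays at each dose, and the groups overlapped at 24 h. Both values use the same 6 DMSO arrays. Without a single array the adjusted p ranged from 0.016 to 0.12 for 30 µM and from 0.0013 to 0.083 for 100 µM. The call at 30 µM was lost without any array of DMSO or of 30 µM EMD but EMD 30 µM 72 h replicate 1. The call at 100 µM was kept when the array left out was replicate 1 of DMSO at 24 h (-1.14), replicate 2 of EMD 100 µM at 24 h (-1.19), replicate 1 (-1.13) or 3 (-1.09) of DMSO at 72 h, or replicate 1 of EMD 100 µM at 72 h (-1.32), and lost for each of the other 7.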

How the results depend on the processing

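Of 567 values of the 9 serpins under another setting, 544 stayed on the same side of the threshold, 19 became calls, 4 lost their call and 0 turned direction. Of 594 with an array left out, 566 stayed, 5 became calls, 23 were lost and 0 turned. Each serpin has 1 probe set, so a mean over probe sets changes none of them, and the filter on dim probe sets kept all 9. Serpina1's response difference was lost at 30 µM under cyclic loess (-0.97, adjusted p = 0.07), where 0 serpins were lower, and at 100 µM with only the arrays compared (-1.11, 0.062), again 0. Serpina6 at 100 µM for 72 h was lost under trend and robust moderation (0.064) and with only the arrays compared (0.052), which left 1 rise. Array weights gave 2 falls for dose at 72 h, 2 rises with time in DMSO, and 2 rises and 2 falls for the 100 µM response difference. Without a single array, falls ranged from 0 to 1 for 30 µM at 24 h, 2 to 2 for 100 µM at 24 h, 4 to 4 and 5 to 5 at 72 h, 0 to 2 for dose at 72 h, 2 to 2 with time in DMSO, and 0 to 1 and 0 to 2 for the response differences. Rises ranged from 1 to 1 for both doses at 24 h and 30 µM at 72 h, 1 to 2 for 100 µM at 72 h, 1 to 2 with time in DMSO, and 0 to 0 for dose and the response differences, as did falls for dose at 24 h. Without EMD 100 µM 72 h replicate 1, Serpina3n (-0.81) and Serping1 (-0.75) became falls for dose at 72 h and Serpina3n (-1.74) for the 100 µM response difference; the last also without DMSO 72 h replicate 3 (-1.63), and Serpinf1 (0.40) became a rise with time without DMSO 24 h replicate 1. Without EMD 100 µM 72 h replicate 1, the change of Hsp90b1 at 100 µM for 72 h, -0.07 with all arrays, turned to 0.40 (adjusted p = 0.027), within a range of -0.34 to 0.40.

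Of the 18 same-numbered pairs within a time, 16 correlated over 0.1 in their deviations (median 0.37, against -0.215 for different numbers), and 17 of 18 arrays correlated best with their own number, which hints at pairing. DMSO 24 h replicate 3 correlated at only 0.01 and 0.03 with its EMD partners at 24 h. With replicate 3 of DMSO, 30 µM EMD and 100 µM EMD at 72 h it correlated at 0.22, 0.29 and 0.33. As its pairs at 24 h fell short of 0.1 and the labels tie no number to an animal, the block stayed an alternative. With the replicate block no serpin lost its call. It added falls of Serpina3n at 24 h for 30 µM (-0.54, adjusted p = 0.028) and 100 µM (-0.50, 0.037), Serpinf2 for 30 µM at 24 h (-0.51, 0.05, under the threshold before rounding) and Serping1 for 30 µM at 72 h (-0.36, 0.025), so that 3, 3 and 5 of the 9 fell there. It also added, for dose at 72 h, 2 falls, Serpina3n (-0.52, 0.047) and Serping1 (-0.49, 0.016), and with time in DMSO a rise of Serpinf1 (0.28, 0.048), making 2, and a fall of Serping1 (-0.33, 0.034), making 3. For the response differences it added 1 rise at each dose, Serpine2 (0.78, 0.029, and 1.20, 0.003), and falls of Serpina3n (-0.89, 0.027, and -1.44, 0.0018) and, for 30 µM, Serpinf2 (-0.83, 0.048), making 3 and 2. Of the other genes named, C1r, C1s and Fga became falls for 100 µM at 24 h, Fga a fall and Serpinb9b and Vldlr rises for 30 µM at 24 h, and Edem2 a fall for 100 µM at 72 h.

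Over all probe sets, calls moved by over 1.5 times from 5308 to 8192 (array weights) and 3305 (only the arrays compared) for 100 µM at 72 h, from 963 to 3336, 141 and, with the block, 1625 for dose at 72 h, from 0 to 9 and, with the block, 3 for dose at 24 h, from 6738 to 3997 (only the arrays compared) with time in DMSO, and for the response differences from 292 to 641 (weights) and 924 (block) and from 215 to 1090, 76 and 534. Without an array they ranged from 1027 to 1420 and 1207 to 1605 at 24 h, 3857 to 4963 and 3664 to 6097 at 72 h, 0 to 2 and 141 to 2541 for dose, 4691 to 5718 with time, and 123 to 475 and 57 to 800 for the response differences. Background correction and scan dates were not run, since no scanner files were used. The number of arrays limits what can be seen, and Serpine2 in DMSO lies low on the array.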
